A study of Mus musculus with 6 samples.

Results

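The 9 genes described here encode inhibitory adaptors and phosphatases of lymphocyte signalling: Lax1, Dok1, Dok2, Dok3, Ptpn6, Ptpn22, Inpp5d, Inppl1 and Ubash3a. They were chosen by function from 22098 gene symbols, and partly for the patterns of Lax1, Dok2, Ptpn22 and Inppl1 in these libraries. The differences of those 4 genes are therefore a description with no test. Each gene is represented by its transcript with the highest mean value, and all 9 were among the 10943 genes that averaged 1 RPKM or more over the libraries (read numbers scaled to transcript length and library size).

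RNA of proB cells, early B-lymphocyte precursors that rearrange their immunoglobulin heavy chain genes, was sequenced after sorting from the bone marrow of C57BL/6 mice aged 6 to 7 weeks. The cells came as Hardy fraction C+C' (called fraction C), the later stage, and Hardy fraction B, the earlier stage. The genotypes were ZnF4-/- and ZnF1-/-, mutants of zinc finger 4 or zinc finger 1 of the transcription factor Ikaros, and wild type (wt), and the study addresses what individual fingers of its DNA-binding domain do. There was 1 library per genotype and fraction, 6 in all, and the labels do not give the number of animals behind a library. No treatment is named for any group. Neither is a transgene or Cre driver.

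Antigen receptors signal through Src- and Syk-family kinases, and the proteins studied here restrain that signal. Inhibitory receptors carry tyrosine motifs that, once phosphorylated, recruit the tyrosine phosphatase SHP-1 (Ptpn6) or the lipid phosphatase SHIP1 (Inpp5d), which removes the 5' phosphate of the membrane lipid PIP3. Dok adaptors bring in RasGAP and SHIP1, Ptpn22 works with the kinase Csk to switch off Src-family kinases, and Lax1 and Ubash3a lower antigen receptor signalling in lymphocytes.

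In the ZnF4 libraries, Lax1, Dok2, Ptpn22 and Ubash3a were lower than in the wt libraries and Dok3 and Inppl1 were higher, each at least 2-fold in both fractions on the deposited scale. In the ZnF1 libraries, Dok2 and Ptpn22 were higher than in wt and Inppl1 was lower, the opposite directions to ZnF4, while Ubash3a was lower in both mutants. Dok1, Ptpn6 and Inpp5d stayed within 2-fold of wt in every mutant library on the deposited scale. The bar plots of RPKM per library show the values behind these statements.

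**Figure D1:**
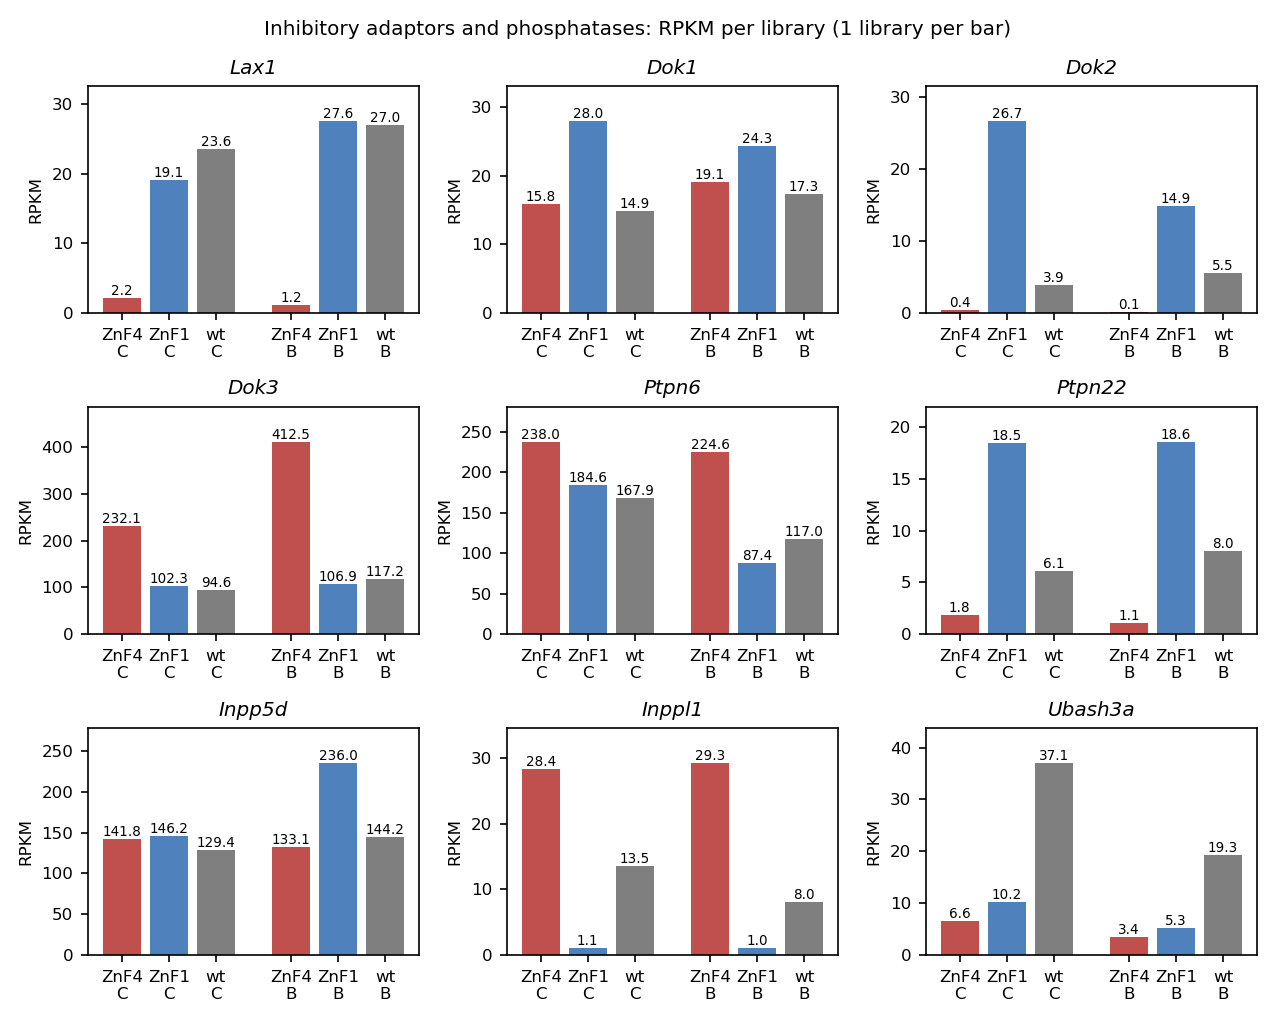
RPKM of the 9 genes in each library (1 bar per library, ZnF4 in red, ZnF1 in blue, wt in grey; fraction C left of fraction B; each panel has its own axis starting at 0). Lax1, Dok2 and Ptpn22 are lowest and Inppl1 highest in both ZnF4 libraries, while Ubash3a is highest in both wt libraries.

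Ikaros binds DNA through a core written GGGAA, so promoter windows of 5 members are shown for the genes that differed at least 2-fold in both fractions. The windows are RefSeq promoters of build GRCm38.p6, from 250 bases before to 50 after a transcript start. They were matched by symbol because the values themselves were computed on build mm9. The start used lay 0 bases from the annotated start of the measured transcript for Lax1, Ptpn22 and Dok3, and 21 for Inppl1. For Ubash3a it lay 193 bases after that annotated start, so most of the Ubash3a window is not upstream of it. Capitals mark GGGAA or its reverse complement TTCCC. The windows are Lax1 at chr1:133690059-133690358 (minus strand), Ptpn22 at chr3:103860027-103860326 (plus strand), Dok3 at chr13:55528489-55528788 (minus strand), Ubash3a at chr17:31207816-31208115 (plus strand) and Inppl1 at chr7:101837775-101838074 (minus strand).
Lax1: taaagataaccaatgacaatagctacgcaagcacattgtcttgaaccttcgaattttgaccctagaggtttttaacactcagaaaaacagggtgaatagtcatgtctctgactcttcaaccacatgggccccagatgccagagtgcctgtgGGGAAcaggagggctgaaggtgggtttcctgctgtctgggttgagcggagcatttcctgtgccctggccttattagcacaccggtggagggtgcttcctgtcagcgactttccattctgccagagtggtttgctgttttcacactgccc
Ptpn22: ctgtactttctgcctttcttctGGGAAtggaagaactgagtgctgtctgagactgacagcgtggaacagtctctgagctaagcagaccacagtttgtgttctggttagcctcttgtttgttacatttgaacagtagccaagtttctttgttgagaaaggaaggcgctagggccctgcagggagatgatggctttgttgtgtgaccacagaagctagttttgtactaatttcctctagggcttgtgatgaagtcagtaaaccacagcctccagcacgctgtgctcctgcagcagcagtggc
Dok3: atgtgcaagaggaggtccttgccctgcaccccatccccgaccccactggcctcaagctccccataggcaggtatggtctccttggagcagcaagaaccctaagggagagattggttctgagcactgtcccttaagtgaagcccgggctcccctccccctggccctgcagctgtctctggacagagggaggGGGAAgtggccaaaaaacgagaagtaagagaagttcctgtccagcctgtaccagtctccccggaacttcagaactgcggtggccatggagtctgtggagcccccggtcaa
Ubash3a: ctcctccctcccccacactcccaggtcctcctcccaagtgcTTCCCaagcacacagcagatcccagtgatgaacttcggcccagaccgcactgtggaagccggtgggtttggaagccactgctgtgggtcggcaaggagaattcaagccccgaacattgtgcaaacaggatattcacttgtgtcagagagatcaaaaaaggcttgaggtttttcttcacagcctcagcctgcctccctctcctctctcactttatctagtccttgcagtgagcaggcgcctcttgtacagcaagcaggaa
Inppl1: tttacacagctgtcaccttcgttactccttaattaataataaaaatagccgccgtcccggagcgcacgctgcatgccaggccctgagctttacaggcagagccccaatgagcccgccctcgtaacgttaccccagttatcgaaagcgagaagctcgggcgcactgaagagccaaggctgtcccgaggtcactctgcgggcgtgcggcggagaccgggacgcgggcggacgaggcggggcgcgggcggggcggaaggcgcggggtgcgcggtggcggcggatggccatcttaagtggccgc
Promoter windows were matched for 7 of the 9 genes, and 6 of the 7 hold GGGAA on one strand or the other. The exception is the Inppl1 window printed here, which belongs to the start nearest the transcript measured. An Inppl1 window farther upstream, at chr7:101838177-101838476, holds 1 GGGAA. The same core stands in 62.7% of all 32851 promoter windows (20599). The longer TGGGAA, which contains GGGAA, stands in 4 of the 7 windows (Ptpn6, Ptpn22, Inpp5d and Ubash3a) and in 25.6% of all windows (8397). GGGAA also contains GGAA, the core that Ets-family factors bind, and a match of these letters is not a measured site.

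The sorted cells carried proB markers in every library. Cd79a, Vpreb1, Igll1, Ebf1 and Pax5 were each at 73.3 RPKM or more in all 6 libraries, and none of the 16 proB markers was at 0. Dntt, which encodes the terminal transferase of proB cells, stood at 25.7 RPKM in ZnF4 fraction C and 18.7 in ZnF4 fraction B, against 335.4 in wt fraction C and 568.7 in wt fraction B. Enpep, the BP-1 antigen of the later stage, was higher in fraction C than in fraction B in each genotype, at 43.1 against 1.1 RPKM in ZnF4, 20.2 against 2.3 in ZnF1 and 56.6 against 3.5 in wt. The ZnF1 fraction C library stood apart. Its 20 granulocyte and monocyte markers summed to 44447.8 RPKM, against 1049.0 to 3965.4 in the other 5 libraries, and its 14 erythroid markers summed to 4624.8 RPKM, against 181.1 to 410.6. Xist, expressed from the inactive X chromosome of females, was at 0 in the 4 mutant libraries, against 91.9 RPKM in wt fraction C and 81.3 in wt fraction B, while the Y-linked Eif2s3y lay between 34.4 and 55.1 RPKM in the mutants and at 0 in wt. Sex and genotype cannot be told apart in the comparisons with wt. In such bulk libraries, fewer cells of a type and less RNA per cell cannot be told apart either. Depth is unknown.

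Among the adaptors, Lax1 encodes a transmembrane adaptor related to LAT that binds Grb2 once phosphorylated. Lax1 stood at 2.2 RPKM in ZnF4 fraction C and 1.2 in ZnF4 fraction B. It was at 19.1 RPKM in ZnF1 fraction C and 27.6 in ZnF1 fraction B, and at 23.6 in wt fraction C and 27.0 in wt fraction B. Both ZnF4 libraries were thus far below the other 4, and the ZnF1 and wt ranges overlapped. On the log2(RPKM + 1) scale, which is used for every fold here and understates the change of low genes, Lax1 was 7.69-fold below wt in the ZnF4 library of fraction C and 12.7-fold below wt in that of fraction B. Between ZnF1 and wt it was 1.22-fold lower in fraction C and 1.02-fold higher in fraction B. A second Lax1 transcript in the table followed the same order at lower values, with 0.1 RPKM in each ZnF4 library, against 2.0 in wt fraction C and 2.3 in wt fraction B.

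Dok2, an adaptor of haematopoietic cells that docks RasGAP, was close to the lower end of the scale in ZnF4. It stood at 0.4 RPKM in ZnF4 fraction C and 0.1 in ZnF4 fraction B. ZnF1 had 26.7 RPKM in fraction C and 14.9 in fraction B, against 3.9 in wt fraction C and 5.5 in wt fraction B. The 3 genotypes did not overlap, with ZnF4 lowest and ZnF1 highest. Dok2 was 3.50-fold below wt in the ZnF4 library of fraction C and 5.91-fold below wt in that of fraction B. Against wt, ZnF1 was 5.65-fold higher in fraction C and 2.45-fold higher in fraction B, and ZnF4 lay 19.8-fold below ZnF1 in fraction C and 14.5-fold below it in fraction B.

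Markers of other cells moved with some of these values. The granulocyte and monocyte sum was 44447.8 RPKM in ZnF1 fraction C, against 2789.4 in wt fraction C, where Dok2 was also higher. In fraction B the same sum was lower in ZnF1 (1729.5 RPKM) than in wt (3965.4), while Dok2 was higher in ZnF1 there as well. In ZnF4 the 12 natural killer cell markers summed to 28.4 RPKM in fraction C and 22.5 in fraction B, with 1 and 8 of them at 0, against 114.8 in wt fraction C and 216.3 in wt fraction B with none at 0. Ccl5, Gzma, Ncr1 and Klrb1c were among those at 0 in ZnF4 fraction B. Tyrobp held most of the ZnF4 sums, at 18.5 RPKM in fraction C and 19.9 in fraction B. It was at 59.6 RPKM in wt fraction C and 109.6 in wt fraction B. In ZnF1 the natural killer list summed to 930.3 RPKM in fraction C, with Tyrobp at 804.7. In ZnF1 fraction B it summed to 129.3 RPKM, with Tyrobp at 63.5. Of the 12 plasmacytoid dendritic cell markers, the defining gene Siglech was at 0.1 RPKM in both ZnF4 libraries, against 33.0 in ZnF1 fraction C, 20.2 in ZnF1 fraction B, 7.5 in wt fraction C and 24.2 in wt fraction B. The summed level of that list (805.1 RPKM in ZnF4 fraction C and 1241.1 in ZnF4 fraction B, against 406.5 in wt fraction C and 797.4 in wt fraction B) came largely from Spib and Ly6d. The 15 T cell markers summed to 51.5 RPKM in ZnF4 fraction C and 69.2 in ZnF4 fraction B, with 3 and 5 at 0, against 67.2 in wt fraction C and 106.2 in wt fraction B, with 1 at 0 in each. Cd2 held much of that sum in ZnF4, with 18.2 RPKM in ZnF4 fraction C and 47.8 in ZnF4 fraction B, against 9.1 in wt fraction C and 38.1 in wt fraction B. Without Cd2, left out after its values were seen, the other 14 summed to 33.3 RPKM in ZnF4 fraction C and 21.4 in ZnF4 fraction B and to 93.9 in ZnF1 fraction C and 40.7 in ZnF1 fraction B, against 58.1 in wt fraction C and 68.1 in wt fraction B. Cd4, the coreceptor of helper T cells that some dendritic cells also carry, had the genotype order of Dok2, at 0.4 and 0.1 RPKM in ZnF4 fractions C and B and 16.7 and 10.5 in ZnF1 fractions C and B, against 1.9 and 5.7 in wt fractions C and B. The part of such cells in the levels of Dok2, Ptpn22 and Lax1 was not tested.

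**Figure D2:**
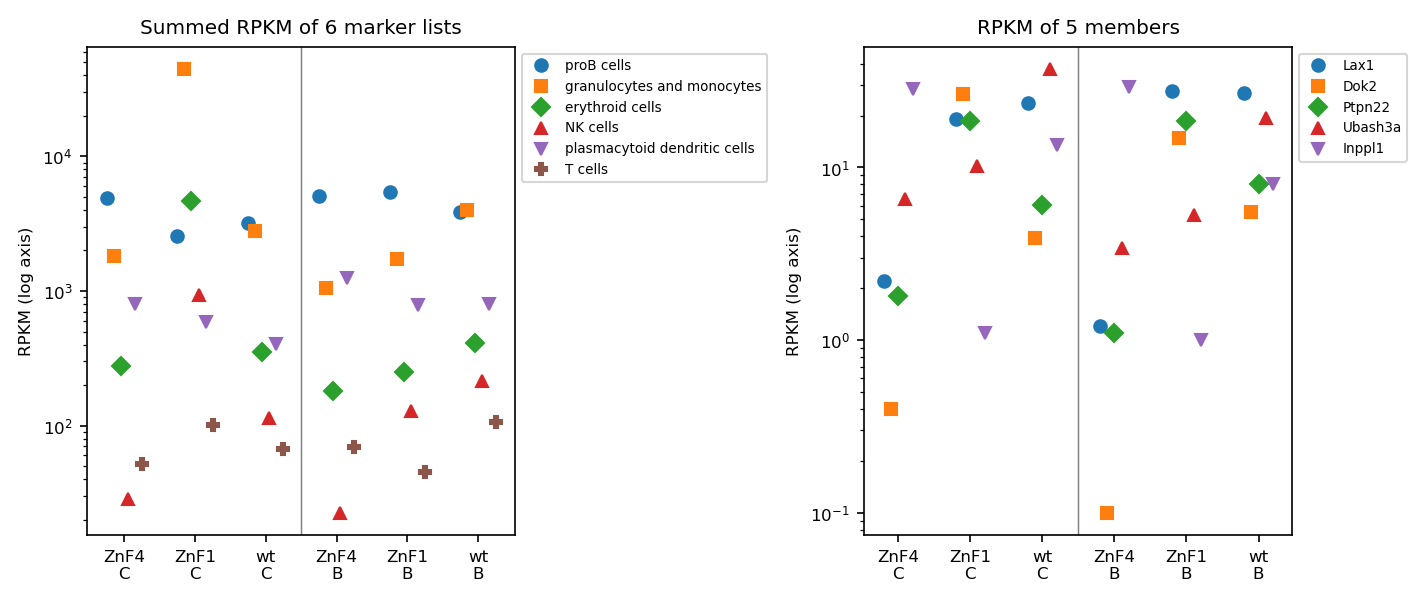
Left, summed RPKM of 6 lists of cell markers in each library; right, RPKM of 5 of the genes in the same libraries (log axes, 1 point per library, fraction C left of fraction B). ZnF1 fraction C has the highest granulocyte and erythroid sums, the ZnF4 libraries have the lowest natural killer sums, and Dok2, Ptpn22 and Lax1 are lowest in ZnF4.

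Dok3, which recruits SHIP1 and Grb2 in B cells, was the most abundant member, with rank 146 among the 10943 genes by mean RPKM. It stood at 232.1 RPKM in ZnF4 fraction C and 412.5 in ZnF4 fraction B. The ZnF1 values were 102.3 in fraction C and 106.9 in fraction B, and the wt values were 94.6 in fraction C and 117.2 in fraction B. The ZnF4 libraries lay above all others, and the ZnF1 values fell inside the wt range. Dok3 was 2.44-fold above wt in the ZnF4 library of fraction C and 3.50-fold above wt in that of fraction B. In limma's model of all 6 libraries (genotype and fraction as additive terms, Benjamini-Hochberg adjustment over 10943 genes), the log2 fold of ZnF4 over wt was 1.55 (SE 0.26) with an adjusted p of 0.124. That missed the threshold of 0.05. The adjusted p was 0.0084 without the ZnF1 fraction B library and 0.00716 without the ZnF1 fraction C library, and ranged from 0.00716 to 1 over 11 alternatives. In those fits without a ZnF1 library 30.8% and 31.6% of all genes passed for ZnF4 over wt, against 0.0274% with all 6 libraries.

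Dok1, the founding member of its family and a RasGAP-binding adaptor like Dok2, varied less. It was at 15.8 RPKM in ZnF4 fraction C and 19.1 in ZnF4 fraction B, at 28.0 in ZnF1 fraction C and 24.3 in ZnF1 fraction B, and at 14.9 in wt fraction C and 17.3 in wt fraction B. The ZnF1 libraries were the highest, and ZnF4 and wt overlapped. Dok1 was 1.82-fold above wt in the ZnF1 library of fraction C and 1.38-fold above wt in that of fraction B. The limma estimate of ZnF1 over wt was 0.67 (SE 0.19, log2) with an adjusted p of 0.505, and 0.88 with an adjusted p of 0.0129 without the ZnF1 fraction B library. That fit leaves ZnF1 with 1 library, fraction C with its granulocyte and erythroid RNA, which is assumed to vary like the ZnF4 and wt libraries, and 37.6% of all genes passed in it. Over 11 alternatives the adjusted p ran from 0.0129 to 1. Of the 4 other Dok genes in the table, Dok4 alone passed the filter, at 0.9 to 2.3 RPKM over the 6 libraries.

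Of the tyrosine phosphatases, Ptpn6 was measured at 238.0 RPKM in ZnF4 fraction C and 224.6 in ZnF4 fraction B. ZnF1 had 184.6 RPKM in fraction C and 87.4 in fraction B, against 167.9 in wt fraction C and 117.0 in wt fraction B. Both ZnF4 libraries were above all others, and ZnF1 spanned the wt range. Ptpn6 was 1.42-fold above wt in the ZnF4 library of fraction C and 1.91-fold above wt in that of fraction B. Its limma estimate was 0.72 (SE 0.30, log2), with an adjusted p of 0.317. Leaving out the ZnF1 fraction B library gave an adjusted p of 0.0279, and leaving out the ZnF1 fraction C library gave 0.0242, in a range of 0.0242 to 1 over 11 alternatives. Under scaling to B-lineage genes the fold in fraction C was about level (log2 fold -0.017). Part of the Ptpn6 exons (7.48% of their bases in the GRCm38 annotation) is overlapped by an antisense gene, and whether reads were counted by strand is not given in the sources used here.

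Ptpn22, called PEP in mouse, followed the order of Dok2. It was at 1.8 RPKM in ZnF4 fraction C and 1.1 in ZnF4 fraction B, and at 18.5 in ZnF1 fraction C and 18.6 in ZnF1 fraction B. The wt values were 6.1 in fraction C and 8.0 in fraction B. The 3 genotypes did not overlap. Ptpn22 was 2.54-fold below wt in the ZnF4 library of fraction C and 4.29-fold below wt in that of fraction B. In ZnF1 it was 2.75-fold higher than in wt in fraction C and 2.18-fold higher in fraction B. Its 2 ZnF1 libraries differed by 0.1 RPKM. Their granulocyte and monocyte marker sums were 44447.8 RPKM in fraction C and 1729.5 in fraction B. Siglech, Cd4 and the natural killer marker sum, given above, were also lower in ZnF4 than in wt. The plasmacytoid dendritic cell marker sum and Cd2, also given above, were instead higher in ZnF4 than in wt in both fractions. In ZnF1, Cd4 was above wt in both fractions. Siglech and the natural killer marker sum were above wt in ZnF1 fraction C and below wt in ZnF1 fraction B. The part of such cells in the level of Ptpn22 was not tested.

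The lipid phosphatases differed from each other. Inpp5d, the haematopoietic SHIP1, was at 141.8 RPKM in ZnF4 fraction C and 133.1 in ZnF4 fraction B, at 146.2 in ZnF1 fraction C and 236.0 in ZnF1 fraction B, and at 129.4 in wt fraction C and 144.2 in wt fraction B. The ZnF1 fraction B library was the high one, and the ZnF4 values fell inside the wt range. The limma estimate of ZnF4 over wt was 0.01 (SE 0.26, log2, adjusted p 0.99) and that of ZnF1 over wt was 0.44 (SE 0.26, adjusted p 0.564). A shorter Inpp5d transcript was listed at 7.3 to 17.1 RPKM and was also highest in ZnF1 fraction B.

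Inppl1, the more widely expressed relative SHIP2, ran the other way from Ptpn22. It stood at 28.4 RPKM in ZnF4 fraction C and 29.3 in ZnF4 fraction B. The ZnF1 libraries had 1.1 RPKM in fraction C and 1.0 in fraction B, and wt had 13.5 in fraction C and 8.0 in fraction B. The 3 genotypes did not overlap, with ZnF4 highest and ZnF1 lowest. Inppl1 was 2.03-fold above wt in the ZnF4 library of fraction C and 3.37-fold above wt in that of fraction B, and 6.90-fold below wt in the ZnF1 library of fraction C and 4.50-fold below wt in that of fraction B. The distance between the mutants was 14.0-fold in fraction C and 15.2-fold in fraction B. A second Inppl1 transcript, which starts upstream, was listed at 0 to 0.2 RPKM. Exons of the opposite-strand gene Phox2a, listed at 0.5 RPKM or less in every library, overlap 1.87% of the Inppl1 exon bases, and an antisense gene overlaps 3.96% of them.

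Ubash3a encodes STS-2, a scaffold with a phosphatase-like domain best known as a suppressor of T cell receptor signalling. It was at 6.6 RPKM in ZnF4 fraction C and 3.4 in ZnF4 fraction B, at 10.2 in ZnF1 fraction C and 5.3 in ZnF1 fraction B, and at 37.1 in wt fraction C and 19.3 in wt fraction B. All 4 mutant libraries were below both wt libraries. Ubash3a was 5.01-fold below wt in the ZnF4 library of fraction C and 4.61-fold below wt in that of fraction B. In ZnF1 it was 3.40-fold lower than in wt in fraction C and 3.22-fold lower in fraction B. The limma estimate was -2.27 (SE 0.17, log2, adjusted p 0.0816) for ZnF4 over wt and -1.73 (SE 0.17, adjusted p 0.219) for ZnF1 over wt. The ZnF4 value passed without the ZnF1 fraction B library (adjusted p 0.00608), without the ZnF1 fraction C library (0.00482) and with no filter on low values (0.0231). The ZnF1 value had an adjusted p of 0.00611 without the ZnF1 fraction B library, where ZnF1 is the fraction C library alone and only the ZnF4 and wt libraries supply the spread. Over 11 alternatives the adjusted p ran from 0.00482 to 0.953 for ZnF4 and from 0.00611 to 1 for ZnF1. The 15 T cell markers, whose cells also express Ubash3a, summed to 51.5 and 69.2 RPKM in ZnF4 fractions C and B and 101.0 and 45.1 in ZnF1 fractions C and B, against 67.2 and 106.2 in wt fractions C and B, and their part was not tested. As given above, Cd2 held much of the ZnF4 sums. Cd3e, a defining chain of the T cell receptor complex, averaged below the filter of 1 RPKM. It was at 0.1 and 0 RPKM in ZnF4 fractions C and B and 2.2 and 0.6 in ZnF1 fractions C and B. Its wt values were 0.6 and 1.3 in fractions C and B. Lat, on the same list, was at 8.1 and 6.8 RPKM in ZnF4 fractions C and B and 5.7 and 1.7 in ZnF1 fractions C and B. In wt it was at 17.8 and 9.5 in fractions C and B. Zap70 and Cd2 were instead higher in ZnF4 than in wt in both fractions, Zap70 at 10.8 and 7.9 RPKM against 10.5 and 5.0. The wt libraries are the ones with Xist, so the sex of the animals moves with the difference of Ubash3a and its part was not tested.

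**Figure D3:**
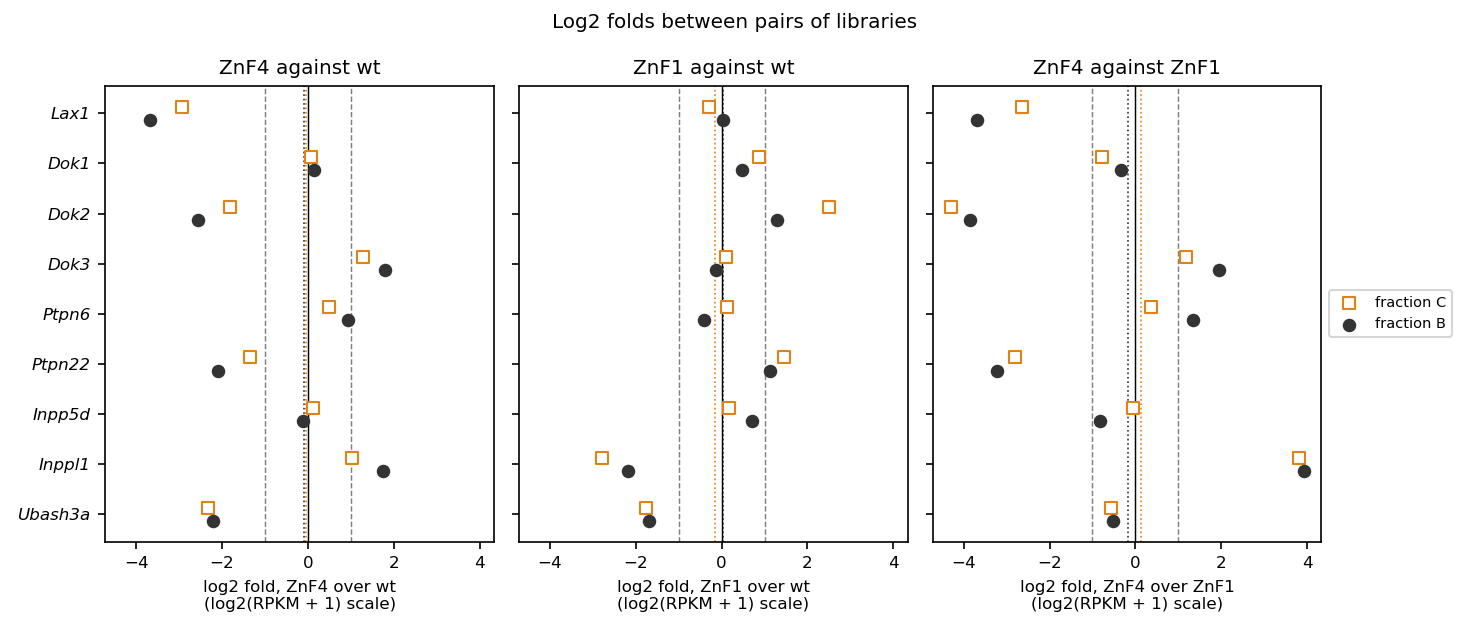
Log2 folds (log2(RPKM + 1) scale) of the 9 genes for ZnF4 over wt, ZnF1 over wt and ZnF4 over ZnF1 (open squares, fraction C; filled circles, fraction B; 1 pair of libraries per point; dashed lines, 2-fold; dotted lines, median of all 10943 genes). Dok2, Ptpn22 and Inppl1 lie on opposite sides of 0 in the ZnF4 and ZnF1 panels, and Ubash3a lies below -1 in both.

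Set against all genes, 2 of the 9 members exceeded wt at least 2-fold in ZnF4 in both fractions, where 2.59% of the 10943 genes were, and 4 were lower, where 4.73% were. Between ZnF1 and wt, 2 members were higher, beside 0.758% of all genes, and 2 were lower, beside 0.804%. Between ZnF4 and ZnF1, 2 were higher (Dok3 and Inppl1), beside 3.11%, and 3 were lower (Lax1, Dok2 and Ptpn22), beside 5.45%. Since 4 of the members were chosen by these contrasts, the shares are printed for scale and nothing is read from them. The median log2 fold of the members was near that of all genes in ZnF4 over wt, at 0.08 against -0.05 in fraction C and -0.12 against -0.09 in fraction B. It was 0.14 against -0.16 in fraction C and 0.03 against 0.04 in fraction B in ZnF1 over wt, and -0.56 against 0.13 in fraction C and -0.52 against -0.17 in fraction B in ZnF4 over ZnF1. The 3 comparisons share libraries, so agreement or contrast between them is partly built in.

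Scaling the libraries to 20 B-lineage genes, which divided the ZnF4 values by 1.28 in fraction C and 1.34 in fraction B and the ZnF1 fraction C values by 0.60, moved the median log2 fold of all genes. The shift was -0.45 in fraction C and -0.41 in fraction B for ZnF4 over wt, 0.52 in fraction C and -0.27 in fraction B for ZnF1 over wt, and -0.99 in fraction C and -0.145 in fraction B for ZnF4 over ZnF1. For fraction C over fraction B it was 0.88 in ZnF1, 0.05 in ZnF4 and 0.09 in wt. Median-ratio scaling moved the same medians by -0.12 to 0.13. Under B-lineage scaling all genes divided into 122 higher and 1339 lower in both fractions, against 283 higher and 518 lower as deposited. For ZnF4 over ZnF1 the division was 147 higher and 1198 lower, against 340 and 596. Under it, Dok3 and Inppl1 were no longer 2-fold higher in ZnF4 in fraction C (log2 folds of 0.77 and 0.52), and the 4 lower genes stayed at least 2-fold lower. In ZnF4 over ZnF1 in fraction C, the log2 fold of Dok3 was 0.09, against 1.17 as deposited, so that Dok3 was no longer 2-fold higher in both fractions. Inpp5d then passed 2-fold as lower in ZnF4 than in ZnF1, with log2 folds of -1.13 in fraction C and -1.001 in fraction B, and Dok1 (-1.83) and Ubash3a (-1.54) did so in fraction C. The fold of Ptpn22 in ZnF1 over wt in fraction B was 0.84, below 2-fold. Dok1 then passed 2-fold in ZnF1 over wt in fraction C (log2 fold 1.42), and its ZnF4 folds turned negative (-0.41 in fraction C and -0.32 in fraction B). No member fold of at least 2-fold changed sign under this or the other settings tried.

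Of the 5 members whose pattern did not choose the list, 0 passed limma's adjusted p of 0.05 in either mutant over wt. In each of these comparisons 0.0274% of all genes passed. These were Xist, Tsix and Eif2s3y, which lie on the sex chromosomes, and no other gene passed. In ZnF4 over ZnF1, 0 of the 5 passed beside 1.82% of all genes. At an unadjusted p under 0.05, 2 of the 5 members passed in ZnF4 over wt, 2 in ZnF1 over wt and 4 in ZnF4 over ZnF1, as did 17.6%, 9.3% and 22.7% of all genes (1930, 1018 and 2489) in those comparisons. Without the ZnF1 fraction B library, 3 of the 5 passed after adjustment in ZnF4 over wt (Dok3, Ptpn6 and Ubash3a), beside 30.8% of all genes, 2 in ZnF1 over wt (Dok1 and Ubash3a), beside 37.6%, and 2 in ZnF4 over ZnF1 (Dok1 and Dok3), beside 37.5%. Without the ZnF1 fraction C library, 3 passed in ZnF4 over wt (Dok3, Ptpn6 and Ubash3a), beside 31.6% of all genes, 0 in ZnF1 over wt, beside 0.146%, and 3 in ZnF4 over ZnF1 (Dok3, Ptpn6 and Inpp5d), beside 24.6%. In both fits ZnF1 is 1 library, and the spread comes from the ZnF4 and wt libraries alone. With 1 library per group, the spread in these tests is how much the genotype effects differ between the fractions.

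From fraction B to fraction C, Ubash3a was higher in every genotype. It was 1.73-fold higher in fraction C than in fraction B in ZnF4, 1.78-fold higher in ZnF1 and 1.88-fold higher in wt. The limma estimate of fraction C over fraction B was 0.84 (SE 0.14, log2), with an adjusted p of 0.854. Dok3 was lower in fraction C in every genotype, by log2 folds of -0.83 in ZnF4, -0.06 in ZnF1 and -0.31 in wt, with an adjusted limma p of 0.854, and the ZnF1 value turned to 0.07 under median-ratio and 0.90 under B-lineage scaling. Ptpn6 was higher in fraction C, with log2 folds of 0.08 in ZnF4 (-0.06 under median-ratio scaling), 1.07 in ZnF1 and 0.52 in wt. The median log2 fold of all genes was 0.11 in ZnF4, -0.16 in ZnF1 and 0.06 in wt.

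On the deposited scale, Ptpn6 in ZnF1 was the only member at least 2-fold apart between the fractions in any genotype. Under B-lineage scaling its log2 fold was 2.04, and Dok1 (1.14), Dok2 (1.74) and Ubash3a (1.71) in ZnF1 and Ubash3a (1.01) in wt also passed 2-fold. The background in ZnF1 was 10.1% of all genes higher in fraction C and 4.16% lower, in the pair that contains the library with granulocyte and erythroid RNA. In ZnF4, 0 of 9 members were 2-fold apart, beside 2.76% of all genes higher and 0.585% lower. In wt, 0 of 9 were, beside 0.338% higher and 1.01% lower. In limma, 0 of the 5 members and 0% of all genes passed for fraction C over fraction B, with 1 of the 5 members and 4.67% of all genes (511) at an unadjusted p under 0.05.

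**Figure D4:**
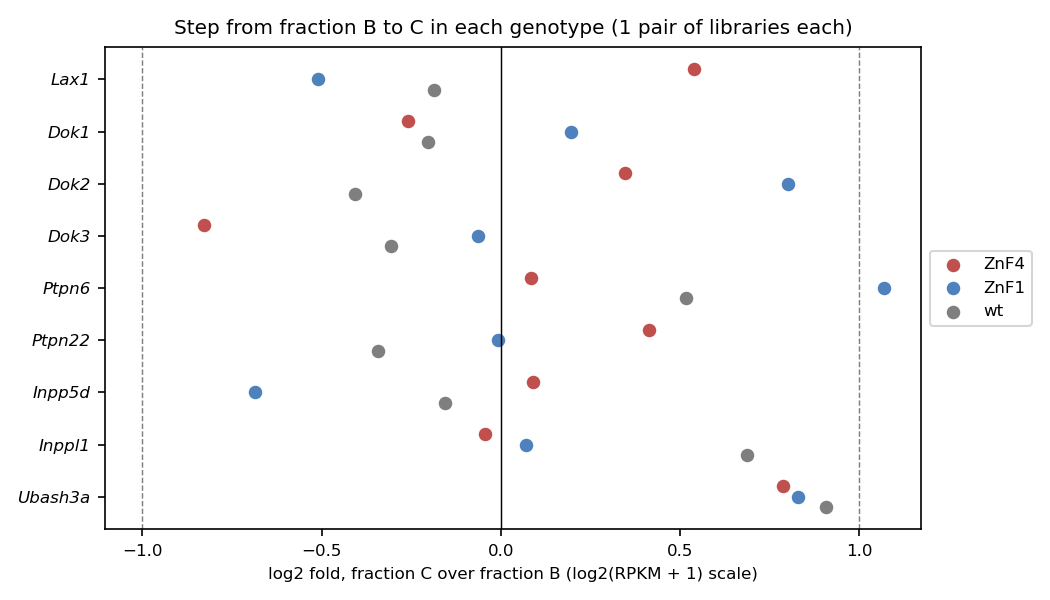
Log2 fold of fraction C over fraction B for each gene (red, ZnF4; blue, ZnF1; grey, wt; 1 pair of libraries per point; dashed lines, 2-fold). The 3 Ubash3a points lie together between 0.79 and 0.91, and Ptpn6 in ZnF1 is the only point past 2-fold on this, the deposited, scale.

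Inhibitory receptors that bring SHP-1 or SHIP1 to the membrane were followed as a list of 15, of which 12 passed the filter. At least 2-fold in both fractions, 4 of the 12 were higher and 2 lower in ZnF4 than in wt, beside 2.59% and 4.73% of all genes, and the list's median log2 fold was 0.67 in fraction C and 0.97 in fraction B, against -0.05 and -0.09 for all genes. Between ZnF1 and wt, 1 was higher and 1 lower, beside 0.758% and 0.804% of all genes. Cd72, an inhibitory protein of the B cell surface that recruits SHP-1, stood at 659.3 RPKM in ZnF4 fraction C and 739.4 in ZnF4 fraction B, at 81.1 in ZnF1 fraction C and 88.9 in ZnF1 fraction B, and at 243.9 in wt fraction C and 255.9 in wt fraction B. Its genotypes kept the order of Inppl1. Fcgr2b, the inhibitory Fc receptor that recruits SHIP1, was higher in both mutants, at 49.1 and 52.1 RPKM in ZnF4 fractions C and B and 41.6 and 35.1 in ZnF1 fractions C and B, against 13.2 and 17.0 in wt fractions C and B. Cd22, another SHP-1 docking receptor, was at 108.4 and 119.5 RPKM in ZnF4 fractions C and B and 11.2 and 20.4 in ZnF1 fractions C and B, against 59.8 and 32.4 in wt fractions C and B.

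The lower receptors in ZnF4 were Lair1 and Lilrb4, which myeloid cells also express. Lilrb4 was at 1.2 RPKM in ZnF4 fraction C and 0.6 in ZnF4 fraction B, against 3.6 in wt fraction C and 4.5 in wt fraction B, and reached 56.3 in ZnF1 fraction C, the library with the high granulocyte and monocyte sum. In limma, 0 of the 12 receptors passed in ZnF4 over wt and 0 in ZnF1 over wt, with 7 and 5 at an unadjusted p under 0.05, as were 17.6% and 9.3% of all genes. For ZnF4 over ZnF1, where 1.82% of all genes passed, 3 of the 12 rose in ZnF4: Cd72 (log2 fold 3.03, adjusted p 0.0359), Siglecg (1.96, 0.0377) and Sit1 (2.40, 0.0377). Siglecg, a sialic acid receptor of B cells, and Sit1, a transmembrane adaptor, are named after their values were seen. These 3 calls were lost without either ZnF4 library (adjusted p from 0.263 to 0.458), with no filter on low values (0.124 to 0.161) and under B-lineage scaling (0.0519 to 0.0673), and that of Siglecg also without wt fraction B (0.084) or wt fraction C (0.0869). Over all alternatives the adjusted p reached down to 0.00234 for Cd72 and Sit1 and 0.00236 for Siglecg.

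The list of kinase inhibitors, Ras and diacylglycerol regulators and E3 ligases held 28 genes, 27 of them above the filter. None was 2-fold higher and 2 were 2-fold below wt in ZnF4 in both fractions, beside 2.59% and 4.73% of all genes. None was 2-fold apart in both fractions between ZnF1 and wt, beside 0.758% of all genes higher and 0.804% lower. One of the pair was Nedd4, a ubiquitin ligase, at 24.5 RPKM in ZnF4 fraction C and 9.4 in ZnF4 fraction B, against 78.2 in wt fraction C and 58.3 in wt fraction B. The other was Sh2d2a, a T cell adaptor, at 3.1 and 1.3 RPKM in ZnF4 fractions C and B, against 8.3 and 4.7 in wt fractions C and B. Spred2, an inhibitor of Ras signalling, was at 4.5 and 2.0 RPKM in ZnF4 fractions C and B, against 9.4 and 8.5 in wt fractions C and B. In limma 0 of the 27 passed in ZnF4 over wt or in ZnF1 over wt, beside 0.0274% of all genes in each. At an unadjusted p under 0.05 there were 9 and 4, beside 17.6% and 9.3% of all genes. For ZnF4 over ZnF1, Rasa3, a Ras and Rap inhibitor named after its value was seen, fell by 1.44 on the log2 scale (adjusted p 0.0452). That call was lost without ZnF4 fraction B (0.547), ZnF4 fraction C (0.401), wt fraction B (0.0998) or wt fraction C (0.102), with no filter (0.117) and under B-lineage scaling (0.0519), in a range of 0.00323 to 0.547 over the alternatives.

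Relatives of the member phosphatases were followed as 2 lists. Of 14 other phosphoinositide phosphatases above the filter, 0 were 2-fold apart in both fractions in any genotype comparison. Of all genes, 2.59% were higher and 4.73% lower in ZnF4 than in wt, and 0.758% and 0.804% in ZnF1 than in wt. Between ZnF4 and ZnF1, 3.11% were higher and 5.45% lower. Limma passed 0 of the 14, beside 0.0274% of all genes in each mutant over wt and 1.82% in ZnF4 over ZnF1. At an unadjusted p under 0.05 there were 2 in ZnF4 over wt and 0 in ZnF1 over wt, beside 17.6% and 9.3%. Of 24 other tyrosine and dual-specificity phosphatases, 1 was higher and 2 lower in ZnF4 than in wt. Between ZnF1 and wt 0 were apart, and the same shares of all genes stand beside these counts. Ptprj, the receptor phosphatase CD148, was at 28.1 RPKM in ZnF4 fraction C and 40.3 in ZnF4 fraction B, against 10.9 in wt fraction C and 15.2 in wt fraction B. Dusp1 and Dusp7, which dephosphorylate MAP kinases, were the lower pair. Dusp7 was at 4.3 RPKM in ZnF4 fraction C and 2.5 in ZnF4 fraction B, against 10.4 in wt fraction C and 10.0 in wt fraction B. In limma 0 of the 24 passed in ZnF4 over wt or ZnF1 over wt. At an unadjusted p under 0.05 there were 4 and 1, beside 17.6% and 9.3% of all genes.

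The kinases and adaptors that the members act on numbered 34 above the filter. At least 2-fold in both fractions, 3 were higher and 2 lower in ZnF4 than in wt, beside 2.59% and 4.73% of all genes. Between ZnF1 and wt, 1 was higher and 2 lower, beside 0.758% and 0.804%. Cd79b, a signal chain of the B cell receptor, was at 986.2 RPKM in ZnF4 fraction C and 1277.2 in ZnF4 fraction B, against 396.8 in wt fraction C and 622.3 in wt fraction B. Lcp2 (SLP-76), an adaptor of T and myeloid cells, was at 3.9 and 2.3 RPKM in ZnF4 fractions C and B, against 9.6 and 10.9 in wt fractions C and B. In ZnF1 the lower pair was Lat and Zap70, the adaptor and kinase best known from T cell receptor signalling. Lat was at 5.7 RPKM in ZnF1 fraction C and 1.7 in ZnF1 fraction B, against 17.8 in wt fraction C and 9.5 in wt fraction B. Zap70 was at 2.0 and 1.9 RPKM in ZnF1 fractions C and B, against 10.5 and 5.0 in wt fractions C and B. In limma 0 of the 34 passed in ZnF4 over wt or ZnF1 over wt, beside 0.0274% of all genes in each. At an unadjusted p under 0.05 there were 8 and 9, beside 17.6% and 9.3% of all genes.

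**Figure D5:**
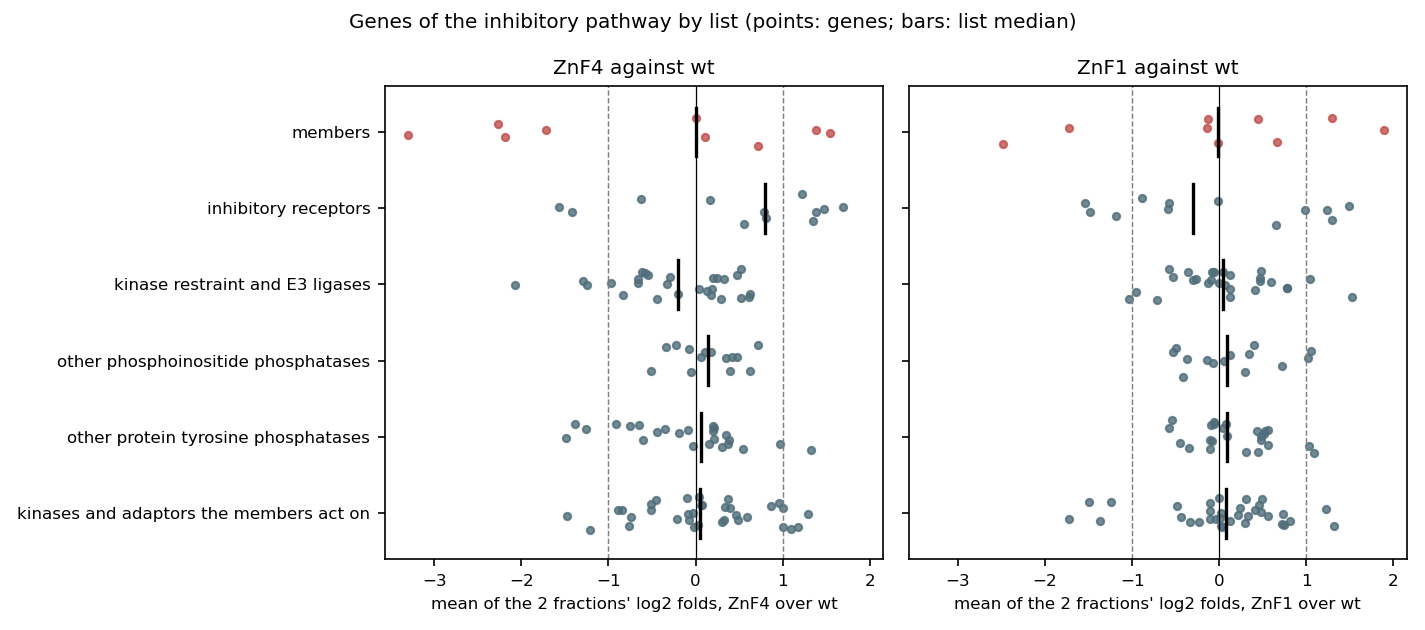
Mean of both fractions' log2 folds for the 9 genes and 5 pathway lists in ZnF4 over wt (left) and ZnF1 over wt (right) (1 point per gene above the filter; vertical bars, list medians; dashed lines, 2-fold; vertical position within a list is random). The 9 genes spread from -3.31 to 1.55 in ZnF4 over wt and from -2.48 to 1.90 in ZnF1 over wt.

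Genes with the nearest profile were sought for the 4 members selected on their pattern, by Euclidean distance of mean-centred log2(RPKM + 1) over the 6 libraries among genes averaging 5 RPKM or more. Nearest to Ptpn22 were Pik3r6 (distance 0.26, r = 0.996) and Gpr97 (0.42, r = 0.991). Pik3r6, a regulatory subunit of phosphoinositide 3-kinase gamma, was at 1.1 and 0.5 RPKM in ZnF4 fractions C and B and 12.7 and 12.5 in ZnF1 fractions C and B, against 4.9 and 6.4 in wt fractions C and B. Among the 3 nearest to Dok2 were Trf (0.69, r = 0.990) and Emb (0.79, r = 0.983). Lax1 had Mmrn1 (0.56, r = 0.991), Tnfsf10 (0.63, r = 0.989) and Kcnn4 (0.79, r = 0.980) as neighbours. Around Inppl1 lay Myl4 (0.44, r = 0.995), Tmprss3 (0.49, r = 0.994) and Hdac9 (0.60, r = 0.992). Each r is over the same 6 libraries and is a description, since each profile was picked for its likeness.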

How the data were processed

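Total RNA of sorted mouse proB cells was sequenced, and libraries were prepared with Illumina TruSeq reagents, per the labels. The deposited values are RPKM per RefSeq transcript, which the authors rounded to 0.1, per the file headers. The deposited table also lists other values, the transcript lengths. Per the submitters' processing notes, TopHat and bedtools were among the tools and mm9 was the build. Neither tool's version or role is given there. The reads that entered the RPKM denominator, the use of strand and the division of reads between transcripts are not stated in these sources. These choices bear on Inpp5d, Inppl1, Lax1 and Ptpn6, which have 2 transcripts each.

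Of 26532 table entries, 1 had no symbol and was left out. There were 0 columns of other samples. Depth is unknown. The best depth left 32.7% to 42.9% of low values per library within the rounding tolerance (0.05 RPKM) of a whole read, beside 31.5% to 39.0% of jittered values, so reads were not recovered and no counting interval is given. RPKM summed to 262648.6 to 355822.4 per library.

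Folds are differences of log2(RPKM + 1) between a pair of libraries, with no replicate check. A linear model with terms for genotype and for fraction was fitted to the 6 libraries in limma 3.58.1 under R 4.3.3 (eBayes with a mean trend). Its p-values are two-sided and were adjusted by Benjamini-Hochberg over 10943 genes. They rest only on how much the genotype effects differ between the fractions in these libraries, a spread that may be technical. The members, the lists and the tests were chosen with earlier results of these data known. Alternatives were a pseudocount of 0.25, no filter, summed transcripts, median-ratio or B-lineage scaling, a 1.5-fold size, single fractions and leaving out each library. Other genes named are the 2 highest and 2 lowest of a list by mean fold in each mutant against wt, and the 3 nearest profiles, unless said otherwise. Some genes that this rule picks are not reported here. Promoter windows are from RefSeq (GRCm38.p6). Exon overlaps are from GENCODE.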

Additional observations from a re-analysis of the deposited data

Results flagged for a closer look

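For some members the same contrast ran in opposite directions in the 2 fractions, or the step from fraction B to fraction C ran in opposite directions in a mutant and in wt. Each rests on 1 pair of libraries per fraction or genotype, and none of these differences was tested. Of the 11 contrasts, 7 also ran in opposite directions under median-ratio and under B-lineage scaling, and 4 did not under one of them. Opposite signs were counted however small the folds were. The share of all genes with opposite directions of this kind was not taken, so nothing is read from these counts. Under median-ratio scaling the log2 fold of Lax1 in ZnF1 over wt was -0.16 in fraction C and -0.018 in fraction B, and the step of Inpp5d was -0.050 in ZnF4 and -0.20 in wt. Under B-lineage scaling the log2 fold of Inpp5d in ZnF4 over wt was -0.39 in fraction C and -0.60 in fraction B, and the step of Inppl1 was 0.021 in ZnF4 and 0.79 in wt.

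Between the fractions, the log2 fold of ZnF1 over wt was lower in fraction C than in fraction B by a difference of -0.32 for Lax1. It was higher in fraction C by 0.24 for Dok3 and by 0.55 for Ptpn6, with the ZnF1 fraction C library the one with high granulocyte and erythroid marker sums. For Inpp5d, the log2 fold of ZnF4 over wt was higher in fraction C than in fraction B by 0.25. The difference between its ZnF4 and wt steps (0.25) is the same quantity by construction. Inpp5d is therefore counted under both forms among the contrasts above.

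In the step from fraction B to fraction C, the log2 fold in ZnF4 exceeded that in wt by 0.73 for Lax1, 0.76 for Dok2 and 0.76 for Ptpn22, genes that were at 2.2 RPKM or less in both ZnF4 libraries. It was lower in ZnF4 than in wt by a difference of -0.73 for Inppl1, which was at 28.4 RPKM in ZnF4 fraction C and 29.3 in ZnF4 fraction B, against 13.5 in wt fraction C and 8.0 in wt fraction B. The step in ZnF1 exceeded that in wt by 0.40 for Dok1 and by 1.21 for Dok2.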

How the results depend on the processing

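With 1 library per genotype and fraction, unknown depth and sex that differs between mutants and wt, the limits of these values cannot be set from replicates. Of 81 member folds, 81 kept their side of the 2-fold threshold with a pseudocount of 0.25, with no filter and with summed transcripts, 80 did under median-ratio scaling and 68 under B-lineage scaling. The cause of each change below was not tested. Under B-lineage scaling the members at least 2-fold higher in both fractions were 0 for ZnF4 over wt, 1 for ZnF1 over wt and 1 for ZnF4 over ZnF1. Of the 10943 genes, 122, 77 and 147 were higher in those comparisons under that scaling. At 1.5-fold, 1 member differed between fractions C and B in all 3 genotypes. The share of all genes past 1.5-fold in all 3 genotypes was not taken, so nothing is read from that count. Counting fraction C alone, chosen after seeing the data, gave 6, 4 and 5 members for the 3 genotype comparisons, the counts found in both fractions. Fraction B alone gave 6, 4 and 6, with 3 members higher in ZnF4 than in ZnF1, against 2 in both fractions. The share of all genes past 2-fold in a single fraction was not taken, so nothing is read from these counts.

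The limma calls over all genes for ZnF4 over wt were 5 with a pseudocount of 0.25, 130 with no filter, 6 under median-ratio scaling, 0 under B-lineage scaling and 0 to 3453 when each library was left out. For ZnF1 over wt they were 99 with no filter, 0 under B-lineage scaling and 0 to 4116 when each library was left out. For ZnF4 over ZnF1 they were 96 with no filter, 355 under median-ratio scaling, 0 under B-lineage scaling and 0 to 4109 when each library was left out. For fraction C over fraction B, 11 genes passed with no filter.

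Estimates near 0 changed sign. For ZnF4 over wt, the log2 estimate of Dok1 was -0.37 under B-lineage scaling and -0.021 to 0.24 when each library was left out, and that of Inpp5d was -0.49 and -0.25 to 0.26 in the same settings. For ZnF1 over wt, the estimate of Dok3 was 0.031 under median-ratio scaling, 0.12 under B-lineage scaling and -0.26 to 0.24 when each library was left out, and that of Ptpn6 was -0.53 to 0.24 when each library was left out. No paired analysis was possible because each group has 1 library and the labels number no replicates, so fraction, the additive term in the limma model, is the one factor within which genotypes were compared.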
